A study of Mus musculus with 6 samples.

Results

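The 10 genes described here encode the chains of mouse MHC class I molecules: the classical heavy chains H2-K1 and H2-D1, the non-classical heavy chains H2-Q1, H2-Q2, H2-Q4, H2-T3, H2-T22, H2-T23 and H2-M3, and the shared light chain B2m. They were found by symbol among the 46078 genes of the count table, all 10 were present, and all 10 passed the filter on low counts, which left 14923 genes. The libraries came from sorted epithelial cells of the proximal small intestine of C57BL/6JRj mice, 3 young (2 to 3 months) and 3 aged (20 to 22 months), all untreated. Cells were released with EDTA and trypsin and sorted for EpCam, an epithelial adhesion molecule, and against CD45, the leukocyte surface protein encoded by Ptprc. The series design gives 3 mice per age, so each library was taken as 1 mouse.

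A class I molecule is a heavy chain held together with beta-2 microglobulin, the product of B2m, usually around a short peptide. Immunoproteasomes cut proteins into such peptides, the TAP transporter carries them into the endoplasmic reticulum, and chaperones load them. Classical molecules show the peptides to CD8 T cells, while several non-classical ones are read by intraepithelial lymphocytes and natural killer cells. In the gut the epithelium is itself a main site of the product of H2-T3, the thymus leukaemia antigen, which binds the CD8 alpha homodimer of intraepithelial lymphocytes. Transcription of class I genes is known to be driven by interferons through IRF1, by NF-kB, and by NLRC5, which acts with the RFX, CREB and NF-Y factors at the promoter.

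The promoters of the members are shown first because they let a reader see which of the known class I elements each gene holds near its start. RefSeq windows on GRCm38.p6, which run from 250 bases before to 50 bases after a gene's start, were found for 9 of the 10 members (H2-Q1 was the exception). The stretches below are 30 bases long, read 5′ to 3′ on the gene's strand, and end 1 base after a TTTCACTT match. Capitals mark matches to an enhancer A spelling of the NF-kB type, the palindrome at the left of the H2-K1 line with any base allowed at its centre, and to AAGTGAAA (here read as its reverse complement), the core of the interferon element. H2-Q6 and H2-Q7 are not members. They lie in the Q region with H2-Q4 and had the largest fitted age differences of the other class I genes described below. H2-Q5, which lies between H2-Q4 and H2-Q6, is not shown. The H2-D1 stretch lies within the gene as GENCODE draws it, and the H2-T3 stretch partly so.
H2-K1, chr17:34000429-34000458, minus strand: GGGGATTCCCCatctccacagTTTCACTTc
H2-D1, chr17:35262923-35262952, plus strand: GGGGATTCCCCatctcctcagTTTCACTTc
H2-Q4, chr17:35379443-35379472, plus strand: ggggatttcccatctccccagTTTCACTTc
H2-Q6, chr17:35424677-35424706, plus strand: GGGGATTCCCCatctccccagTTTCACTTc
H2-Q7, chr17:35439021-35439050, plus strand: tggggattcccatctccccagTTTCACTTc
H2-M3, chr17:37270112-37270141, plus strand: attcccccatttcctctgaggTTTCACTTc
H2-T22, chr17:36042925-36042954, minus strand: gagagtccctaattggcttagTTTCACTTt
H2-T3, chr17:36190269-36190298, minus strand: ttgggctgtacagaactatagTTTCACTTt

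Of the 9 members with a window, 2 (H2-K1 and H2-D1) held this enhancer A spelling, against 0.0487% of all 32851 windows. The spelling is that of the H2-K1 line with its centre left free, so the H2-K1 match was given in advance. H2-Q4 and H2-Q7 hold similar runs near the same place, in lower case above because they miss this spelling. A missing match thus does not show that a gene lacks an element of the NF-kB type. The shorter interferon element GAANNGAAA was matched in 4 (H2-K1, H2-D1, H2-Q4 and H2-M3), against 7.52% of windows, and AAGTGAAA in 6 (those 4 with H2-T3 and H2-T22), against 1.6%. The interferon-stimulated response element, which has the form of the first run of capitals in the B2m line below with any middle pair of bases, was matched in 3 (H2-T22, H2-T23 and B2m), against 3.44%. TGACG, the core bound by CREB family factors, was matched in 6 (H2-K1, H2-D1, H2-Q4, H2-T22, H2-M3 and B2m), against 20.8%, and CCAAT, the NF-Y box, in 8, all but H2-T3, against 37.4%. Both strands were searched, AAGTGAAA overlaps matches of the other interferon elements, and the spellings were settled after these windows had been read. A match is only a run of letters, and binding was not measured.

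Longer stretches show how the elements are spaced in the classical H2-K1, in B2m and in H2-Q2, whose window held CCAAT alone. Capitals mark matches to any of the 6 motifs.
H2-K1, chr17:34000348-34000467, minus strand: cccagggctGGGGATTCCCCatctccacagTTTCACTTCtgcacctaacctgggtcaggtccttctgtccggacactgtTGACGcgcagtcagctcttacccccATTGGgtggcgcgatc
B2m, chr2:122147537-122147656, plus strand: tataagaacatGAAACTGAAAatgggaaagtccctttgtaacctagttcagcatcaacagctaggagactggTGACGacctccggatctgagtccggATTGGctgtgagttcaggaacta
H2-Q2, chr17:35342142-35342241, plus strand: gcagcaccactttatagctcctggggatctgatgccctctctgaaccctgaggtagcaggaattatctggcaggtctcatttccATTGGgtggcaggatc

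The 6 libraries held 41479573 to 58989166 counts, and 3 counts, the limit that a count of 0 allows, were worth 0.0507 to 0.0720 CPM (counts scaled with TMM factors to a common library total). Such limits cover counting error only. On the first principal component of all tested genes the young libraries lay at -27.8, -11.1 and -31.3 and the aged ones at 29.3, 31.7 and 9.2. Aged replicate 3 and young replicate 2 were thus the libraries of each age nearest to the other age. The members, and the other genes whose call changed with aged replicate 3, are given with and without it. Replicate numbers follow record order and pair no libraries.

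In the epithelium of aged mice all 10 genes had a fitted log2 fold change above 0, from 0.11 for H2-T3 to 0.84 for H2-Q4. The median was 0.32, beside 0.01 over all tested genes, of which 51.8% lay above 0. None of the 10 passed edgeR's quasi-likelihood test at a Benjamini-Hochberg adjusted p of 0.05, where 0.623% of all tested genes were called higher and 0.784% lower. At an unadjusted p of 0.05 the count was 6 of 10 (H2-K1, H2-D1, H2-Q2, H2-Q4, H2-T23 and H2-M3), against 3.90% of tested genes higher at that level. The age groups did not overlap, with all aged libraries higher, for 3 members (H2-Q2, H2-Q4 and H2-M3), against 6.30% of tested genes, and for none with all aged libraries lower, against 7.49%. In these sorted bulk samples, fewer cells of a type and less RNA per cell cannot be told apart.

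The number of members called differed between fits. In aged replicates 1 and 2, 8 of the 10 genes lay above every young library, while aged replicate 3 was at or below the highest young library for 6 genes and was the lowest aged library for 9. Without it, edgeR called 5 members higher (H2-K1, H2-D1, H2-Q4, H2-T23 and H2-M3), against 0.891% of the genes tested in that fit. Leaving out the lowest aged library of a gene raises its fold change by construction, so these calls are no separate support. Without young replicate 2, edgeR called 0 members. DESeq2 on all 6 libraries also called 5 (H2-K1, H2-D1, H2-Q2, H2-Q4 and H2-M3), against 1.38%. With no filter on low counts, edgeR called 1 (H2-M3), beside 168 genes called higher over the whole table. No member was called lower in any of these fits.

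**Figure D1:**
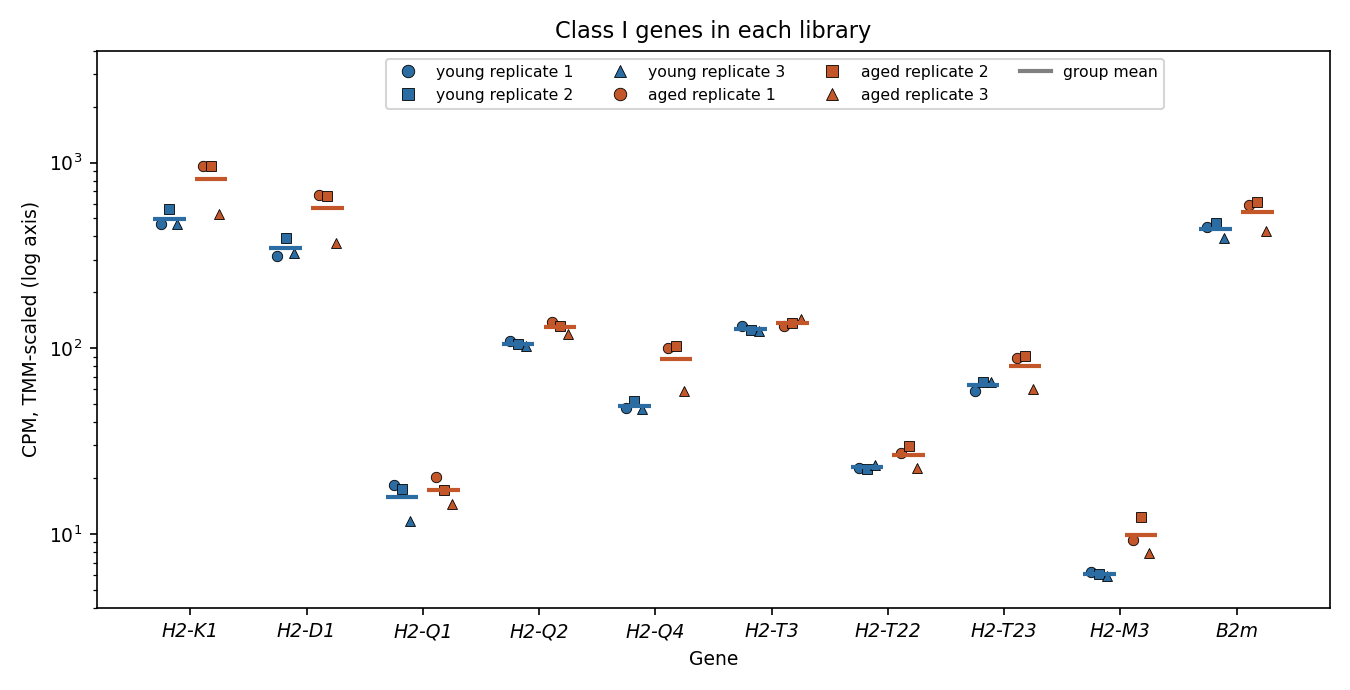
Expression of the 10 class I genes in each library (CPM on a log axis), with young libraries in blue, aged ones in orange, a symbol shape for each replicate number and a short line at each group mean. Aged replicate 3 lies below the other aged libraries for 9 genes, and the exception is H2-T3, where it is the highest at 143.1 CPM.

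H2-K1 and H2-D1 are the classical class I genes of this strain and present peptides to CD8 T cells. H2-K1 (ENSMUSG00000061232, chr17:33996017-34000347, minus strand) stood at 465.3, 564.4 and 468.1 CPM in young libraries and at 961.5, 956.9 and 528.2 CPM in aged ones. The third aged library lay below young replicate 2, so the age groups overlapped. The means were 499 ± 56.4 and 816 ± 249 CPM (SD, n = 3 each), and the log2 fold change was 0.71 ± 0.22 (SE; edgeR adjusted p = 0.287). Without aged replicate 3 it was 0.94 ± 0.10, with an edgeR adjusted p of 0.0046. Over all alternatives its adjusted p ran from 0.0046 to 0.705.

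H2-D1 (ENSMUSG00000073411, chr17:35262730-35267499, plus strand) followed the same order of libraries, with 315.5, 391.2 and 326.7 CPM in young and 672.3, 657.3 and 369.8 CPM in aged. The first 2 aged libraries stood at 1.95 and 1.91 times the young mean and the third at 1.07 times. The fitted log2 fold change was 0.72 ± 0.22 (edgeR adjusted p = 0.275), and 0.94 ± 0.10 without aged replicate 3 (edgeR adjusted p = 0.00461). The adjusted p ran from 0.00461 to 0.685 over the alternatives. H2-K1 exceeded H2-D1 by 1.43 to 1.48 times in CPM in every library, and this ratio differed by a log2 value of -0.01 between the ages (exact two-sided permutation test p = 0.50, the largest of 6 ratio tests and its adjusted p as well). The 2 genes thus kept nearly the same proportion to each other from library to library.

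The Q region members ranged from the largest fitted difference of the 10 members to one of the smallest. H2-Q4 (ENSMUSG00000035929, chr17:35379617-35385290, plus strand) had the largest fold of the members: 47.91, 51.91 and 47.00 CPM in young libraries and 99.72, 103.3 and 59.10 CPM in aged ones, with no overlap. Its log2 fold change was 0.84 ± 0.19, or 1.78-fold (edgeR adjusted p = 0.114), and 1.05 ± 0.08 without aged replicate 3 (edgeR adjusted p = 0.000897). DESeq2 gave it an adjusted p of 0.000422, the smallest of any fit, and the largest was 0.420. Its exons overlap Gm11131 on the opposite strand.

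H2-Q2 (ENSMUSG00000091705, chr17:35342242-35346762, plus strand) was steadier within groups. It measured 108.8, 105.5 and 102.5 CPM in young and 137.9, 131.8 and 118.7 CPM in aged libraries, again with no overlap. Its fitted difference was a log2 fold change of 0.29 ± 0.08 (1.23-fold; edgeR adjusted p = 0.135). DESeq2 placed it just past the threshold (adjusted p = 0.0472), and edgeR without aged replicate 3 did not (adjusted p = 0.0643). The log2 ratio of H2-Q4 to H2-Q2 was 0.50 higher in aged libraries, with an exact two-sided permutation p of 0.10 (adjusted p = 0.20 over 6 ratios), the smallest p that 3 against 3 libraries can give.

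H2-Q1 (chr17:35320405-35325099, plus strand) was the third Q gene and showed no age difference that could be resolved. It measured 18.29, 17.52 and 11.69 CPM in young and 20.28, 17.30 and 14.47 CPM in aged libraries, groups that overlapped almost fully. Its log2 fold change was 0.13 ± 0.18 (edgeR adjusted p = 0.913). The sign turned when young replicate 3 was left out (-0.05) and with 1 surrogate variable (-0.02).

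The T and M region genes held both the flattest member and one of the steepest. H2-T3 (ENSMUSG00000054128, chr17:36185572-36190287, minus strand), the thymus leukaemia antigen gene, measured 132.5, 125.6 and 123.3 CPM in young and 131.9, 137.1 and 143.1 CPM in aged libraries. Aged replicate 1 lay below young replicate 1, so the groups overlapped, and aged replicate 3 was its highest library. The log2 fold change was 0.11 ± 0.07 (edgeR adjusted p = 0.740), and 0.08 ± 0.08 without aged replicate 3 (edgeR adjusted p = 0.772). No fit called it.

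H2-M3 (ENSMUSG00000016206, chr17:37270220-37274484, plus strand) presents peptides that begin with formyl methionine, such as bacterial ones. It was the least abundant member, with 6.211, 6.121 and 5.929 CPM in young and 9.315, 12.37 and 7.878 CPM in aged libraries. Every aged library lay above every young one. The log2 fold change was 0.69 ± 0.17, or 1.62-fold (edgeR adjusted p = 0.118). It was called by DESeq2 (adjusted p = 0.00829), by edgeR without aged replicate 3 (adjusted p = 0.0450) and by edgeR with no filter on low counts (adjusted p = 0.0147).

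H2-T23 (ENSMUSG00000067212, chr17:36029773-36032855, minus strand) encodes Qa-1, which carries leader peptides of other class I chains to inhibitory receptors of natural killer cells. Its values were 58.99, 66.11 and 65.54 CPM in young and 88.23, 91.00 and 60.53 CPM in aged libraries. The third aged library stood at 0.953 times the young mean, below 2 young libraries. The log2 fold change of 0.33 ± 0.14 did not pass (edgeR adjusted p = 0.539), and without aged replicate 3 it was 0.49 ± 0.08 (edgeR adjusted p = 0.0270).

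H2-T22 (chr17:36037128-36042747, minus strand), whose product is bound by some gamma delta T cell receptors, measured 22.54, 22.39 and 23.50 CPM in young and 27.42, 29.89 and 22.69 CPM in aged libraries. Aged replicate 3 fell among the young libraries. The log2 fold change was 0.23 ± 0.11 (edgeR adjusted p = 0.632), and 0.33 ± 0.10 without that library (edgeR adjusted p = 0.199). Its exons overlap A930015D03Rik on the opposite strand.

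B2m (ENSMUSG00000060802, chr2:122147686-122153083, plus strand) lies outside the MHC and encodes the light chain that all of these heavy chains need. It stood at 449.8, 471.6 and 394.7 CPM in young and at 592.9, 611.3 and 425.6 CPM in aged libraries. Aged replicate 3 lay below 2 of the young libraries, and the other 2 aged libraries lay at 1.35 and 1.39 times the young mean. The log2 fold change was 0.31 ± 0.14, or 1.24-fold (edgeR adjusted p = 0.544). It was 0.45 ± 0.09 without aged replicate 3 (edgeR adjusted p = 0.0561), and its adjusted p stayed above 0.05 under every alternative, up to 0.9995.

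**Figure D2:**
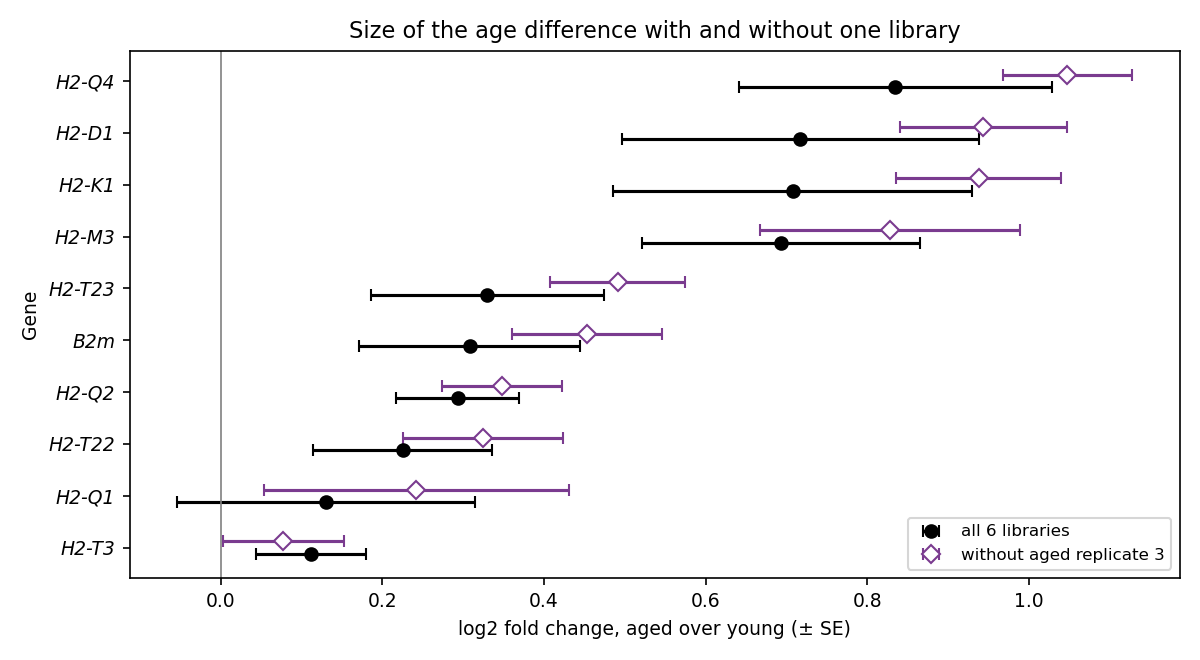
Log2 fold change of aged over young for each class I gene with its standard error, from all 6 libraries and from the fit without aged replicate 3. Leaving that library out moves H2-K1 from 0.71 to 0.94, H2-Q4 from 0.84 to 1.05 and H2-T3 from 0.11 to 0.08.

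Levels were compared between genes as CPM per kilobase of exonic length. That length joins the exons of all annotated transcripts of a gene, and orders between genes depend on it. It was 2938 bases for H2-K1, 2860 for H2-Q1, 1438 for H2-M3 and 860 for B2m. In young libraries B2m was highest at 510 ± 46.1 CPM per kb, followed by H2-K1 (170 ± 19.2) and H2-D1 (134 ± 15.9). H2-Q2 (48.4 ± 1.46) and H2-T3 (46.6 ± 1.76) came next, with overlapping spreads across libraries, though H2-Q2 was the higher within each young library. In CPM alone H2-T3 was the higher in each of these libraries. H2-T23 (22.0 ± 1.37) and H2-Q4 (18.9 ± 1.01) followed. At the low end stood H2-T22 (6.68 ± 0.177), H2-Q1 (5.54 ± 1.26) and H2-M3 (4.23 ± 0.0999), where H2-Q1 overlapped H2-M3 within its spread.

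In aged libraries the upper part of this order was kept, with B2m at 632 ± 119, H2-K1 at 278 ± 84.7 and H2-D1 at 220 ± 66.1 CPM per kb. The spreads of H2-K1 and H2-D1 across aged libraries overlapped, though H2-K1 was the higher within every library. H2-Q4 (33.7 ± 9.46) passed H2-T23 (27.7 ± 5.83), with overlapping spreads across libraries. Within libraries, H2-Q4 lay below H2-T23 in each young one and above it in each aged one. H2-M3 (6.853 ± 1.595) passed H2-Q1 (6.07 ± 1.02), with overlapping spreads and no fixed order within the libraries of either age. These orders were not tested. H2-T3 remained close to its young level at 50.4 ± 2.06 CPM per kb.

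The ratio of heavy to light chain transcripts was higher in each aged library than in any young one. The 9 heavy chains summed to 435.4, 498.0 and 434.1 CPM per kb in young libraries and to 790.1, 786.0 and 491.0 in aged ones. Divided by B2m per kb, this gave 0.832, 0.908 and 0.946 for the young and 1.15, 1.11 and 0.992 for the aged libraries, so aged replicate 3 was also above the young libraries here. This summed ratio was not tested. Among single ratios, H2-K1 to B2m was 0.37 and H2-D1 to B2m 0.38 higher on the log2 scale in aged libraries. Each had an exact two-sided permutation p of 0.10, the smallest possible (adjusted p = 0.20 over 6 ratios). H2-T3 to B2m was lower by a log2 value of -0.18 (exact permutation p = 0.40, adjusted p = 0.48).

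The classical genes made a larger part of the heavy chain pool in aged replicates 1 and 2, and not in aged replicate 3. H2-K1 and H2-D1 together made 64.5, 69.0 and 65.9% of heavy chain CPM per kb in young libraries, and 74.4, 73.9 and 65.8% in aged ones. H2-T3 made 11.2, 9.24 and 10.41% in the young libraries, against 6.12, 6.39 and 10.7% in the aged ones. The log2 ratio of H2-K1 to H2-T3 was 0.55 higher in aged libraries with overlap between the ages (exact permutation p = 0.30, adjusted p = 0.45). All 10 genes together took 0.161, 0.183 and 0.158% of all counts in the young libraries and 0.271, 0.277 and 0.176% in the aged ones.

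**Figure D3:**
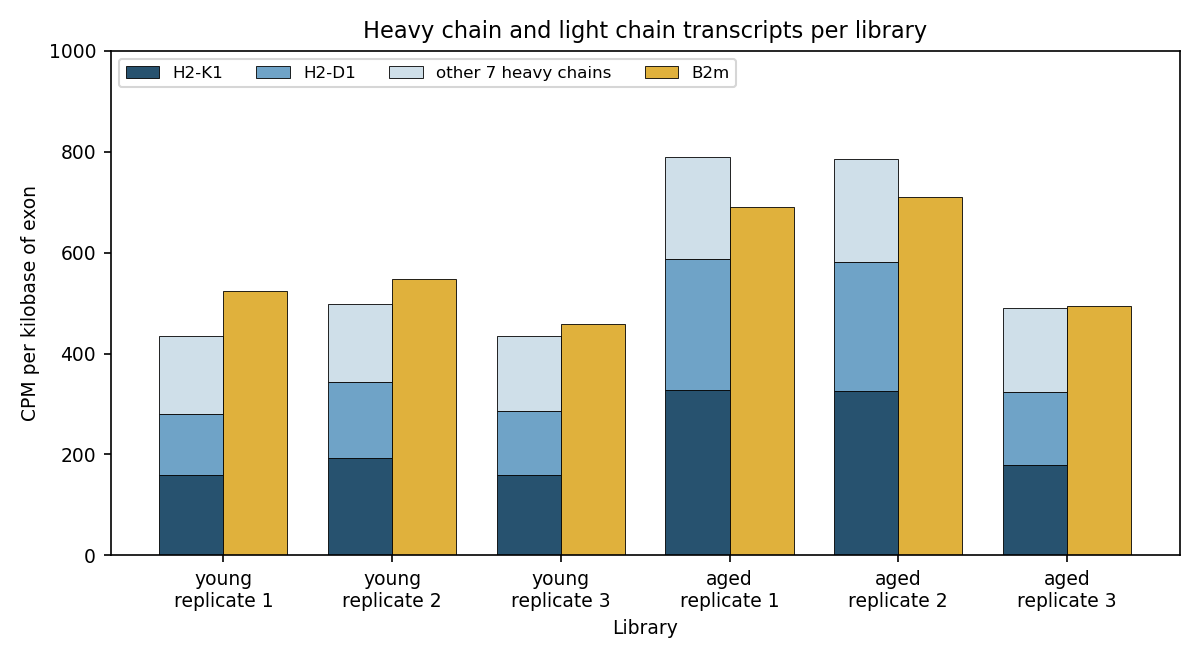
Stacked bars of H2-K1, H2-D1 and the other 7 heavy chains beside a bar of B2m for each library, in CPM per kilobase of exon. The heavy chain bar stands below that of B2m in every young library (435.4, 498.0 and 434.1) and above it in aged replicates 1 and 2 (790.1 and 786.0), while in aged replicate 3 (491.0) the bars are nearly level. Which bar is the taller depends on the exonic lengths used.

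Class I genes are near copies of one another, and the treatment of reads that fit several genes is not given in the sources used here. The share of 50-base words of a gene's transcripts found also in another gene's was 9.6% for H2-K1, 12.8% for H2-D1, 15.0% for H2-Q1, 16.1% for H2-Q2 and 21.8% for H2-Q4. It was 34.5% for H2-T22, nearly all of it shared with H2-T10 (31.2%), and 13.6% for H2-T23. H2-T3 (0.9%), H2-M3 (0.6%) and B2m (0.0%) shared almost none. Whether shared reads had a part in the class I values was not tested. The counts of H2-T22 and of the Q genes remain uncertain on this account.

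Other class I and class I-like genes were sparser in this epithelium. Of 31 listed, 27 were in the table, 10 of these had 0 counts in all libraries, and 12 were tested. None of the 12 was called by edgeR in either direction (4, all higher, had an unadjusted p under 0.05), and 8 had a fold change above 0. Of all tested genes, 3.90% were higher at that unadjusted level and 51.8% lay above 0. The largest differences lay in the Q region beside H2-Q4. H2-Q7, a Qa-2 gene, measured 1.547, 3.602 and 1.920 CPM in young and 25.73, 33.82 and 3.850 CPM in aged libraries (log2 fold change 3.14 ± 0.85, edgeR adjusted p = 0.254). H2-Q6 measured 4.072, 6.375 and 2.785 against 30.67, 33.16 and 6.006 CPM (2.38 ± 0.70, edgeR adjusted p = 0.305). In aged replicates 1 and 2 both genes were several times their young level, and aged replicate 3 was close to the highest young library.

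H2-Q5 (log2 fold change 2.26 ± 0.84, edgeR adjusted p = 0.441) and H2-T10 (0.86 ± 0.26, edgeR adjusted p = 0.218) also had their 2 highest libraries in aged replicates 1 and 2. H2-Q5 measured 4.985 and 4.123 CPM there, 0.535 in aged replicate 3 and up to 1.150 in young libraries, and H2-T10 measured 5.830 and 5.373, 2.941 and up to 2.821 CPM. Without aged replicate 3, edgeR called all 4 of these genes higher, against 0.891% of the genes tested in that fit. The edgeR adjusted p was then 0.00416 for H2-Q7, 0.00552 for H2-Q6, 0.0260 for H2-Q5 and 0.0225 for H2-T10. They share 26.4% (H2-Q7), 32.0% (H2-Q6), 36.4% (H2-Q5) and 32.9% (H2-T10) of their 50-base words with other genes. The 8 others gave log2 fold changes of 0.47 for H2-Q10, 0.32 for H2-T24, 0.32 for H2-M2, 0.08 for H2-Bl, -0.05 for Fcgrt (the neonatal Fc receptor), -0.11 for Hfe (an iron regulator), -0.60 for Mill2 and -0.66 for Cd1d1, which presents lipids. The signs of H2-T24, H2-Bl and Hfe turned under at least 1 alternative.

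Among the genes that supply class I molecules with peptides, both transporter genes, the tapasin relative Tapbpl and 1 immunoproteasome gene, Psmb9, were higher in aged mice. Of 13 tested, 4 were called higher by edgeR, none lower, and 12 had a fold change above 0, with a median log2 fold change of 0.35. Over all tested genes 0.623% were called higher, 51.8% lay above 0 and the median was 0.01. Tap1, one chain of the peptide transporter, measured 52.73, 53.41 and 61.33 CPM in young and 167.3, 197.9 and 127.7 CPM in aged libraries, without overlap. Its log2 fold change was 1.56 ± 0.15 (edgeR adjusted p = 0.00331), and it was called whichever library was left out. Tap2, the other chain, rose by 1.19 ± 0.17 (edgeR adjusted p = 0.0151), and the tapasin relative Tapbpl by 0.55 ± 0.08 (edgeR adjusted p = 0.0130). Psmb9, an immunoproteasome subunit, rose by 1.33 ± 0.23 (edgeR adjusted p = 0.0433).

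The calls of Tap2 and Psmb9 each held in only 1 of the 6 fits that left out a library, the fit without aged replicate 3, where their edgeR adjusted p was 0.000549 and 0.000313, and that of Tapbpl held in 3. With no filter on low counts Tap2 (0.0583) and Psmb9 (0.241) missed the threshold of adjusted p, and with 1 surrogate variable Psmb9 did (0.159). Over the 6 fits that left out a library, the highest edgeR adjusted p was 0.0768 for Tap2, 0.203 for Psmb9 and 0.0731 for Tapbpl. Aged replicate 3 lay above all young libraries for each of these 4 genes, at 62.26 CPM for Tap2 (young 33.78 to 40.16), 101.4 CPM for Psmb9 (57.53 to 65.44) and 72.79 CPM for Tapbpl (48.77 to 52.81). In the same library H2-K1, H2-D1 and B2m were within the young range. Psmb8, another immunoproteasome subunit, had the largest fitted difference of the list, 1.99 ± 0.44, and did not pass (edgeR adjusted p = 0.145). It was called by DESeq2 (adjusted p = 0.00274) and by edgeR without aged replicate 3 (2.35 ± 0.10, adjusted p = 3.37e-05). Its values of 348.8, 397.0 and 123.4 CPM in aged libraries were widely spread and all above the young ones, which ran from 66.59 to 78.73 CPM. Psmb10, the last immunoproteasome subunit of the list, also did not pass (0.37 ± 0.10, edgeR adjusted p = 0.135). Fits that called it included edgeR without aged replicate 3 (adjusted p = 0.0379) and DESeq2 (adjusted p = 0.0292). Over all alternatives its adjusted p ran from 0.0180 to 0.502.

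**Figure D4:**
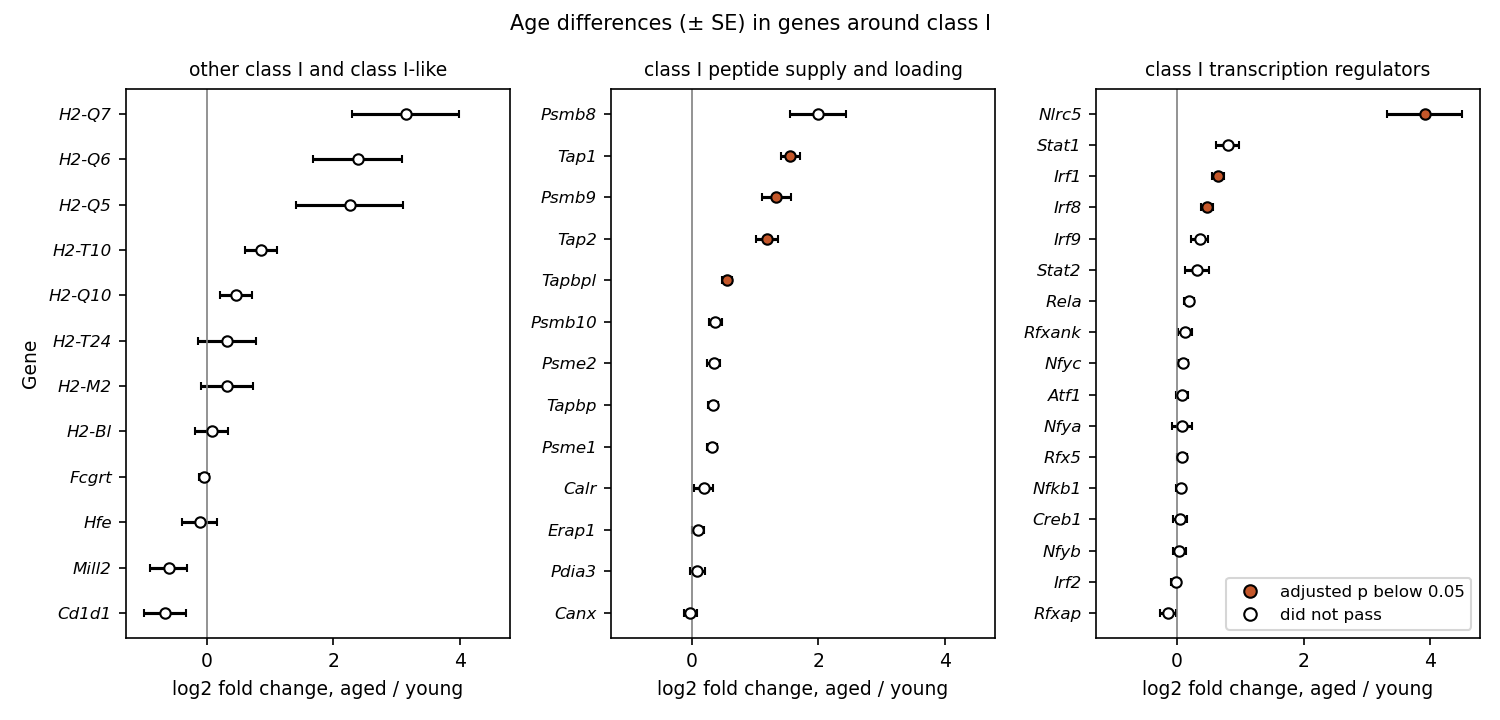
Log2 fold change of aged over young with its standard error, in 3 panels: other class I and class I-like genes, genes of peptide supply and loading, and regulators of class I transcription. Filled points passed edgeR's test, namely Tap1 (1.56), Psmb9 (1.33), Tap2 (1.19), Tapbpl (0.55), Nlrc5 (3.91), Irf1 (0.65) and Irf8 (0.48), and open points did not.

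Among 17 regulators of class I transcription 3 were called higher by edgeR and none lower. Of the 17, 15 had a fold change above 0, with a median of 0.10. The shares over all tested genes were 0.623% called higher and 51.8% above 0, with a median of 0.01. Nlrc5, the class I transactivator, measured 1.115, 3.365 and 1.608 CPM in young and 35.40, 45.03 and 13.88 CPM in aged libraries. Its log2 fold change was 3.91 ± 0.59 (edgeR adjusted p = 0.0421), the largest of the list, and each aged library lay above each young one. Irf1, an interferon-induced activator, rose from 213 ± 26.2 to 334 ± 17.2 CPM (SD, n = 3 each), by 0.65 ± 0.10 (edgeR adjusted p = 0.0130). Irf8, a related factor best known from blood cells, rose by 0.48 ± 0.09 (edgeR adjusted p = 0.0443).

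With a library left out, Nlrc5 was called in 1 of 6 fits, the one without aged replicate 3 (edgeR adjusted p = 0.00939), Irf1 in 2 and Irf8 in 0, with adjusted p up to 0.256, 0.0766 and 0.197. Nlrc5 also missed the threshold with no filter (adjusted p = 0.167) and with library totals alone (0.0586). Irf8 also missed it with upper-quartile factors (0.0557), with at least 1 CPM in 3 libraries (0.0627) and in limma-voom (0.0527). In aged replicate 3, Irf1 stood at 314.8 CPM, close to the 338.7 and 348.1 CPM of the other aged libraries, whereas Nlrc5 stood at well under their level. None of 11 genes of interferon receptors, their kinases and the SOCS feedback inhibitors was called by edgeR. Of these genes 7 lay above 0, against 51.8% of all tested genes. The 2 with an unadjusted p under 0.05 were the inhibitors Socs1 (log2 fold change 0.55 ± 0.18, edgeR adjusted p = 0.267) and Socs3 (0.57 ± 0.15, edgeR adjusted p = 0.138), and no receptor or kinase gene reached that level. The most abundant were Ifngr1 (175.8 ± 9.38 CPM in young, 177.4 ± 6.04 in aged) and Jak1 (159.7 ± 10.02 and 171.0 ± 7.85 CPM; SD, n = 3 each). Of 11 class I receptor genes of lymphocytes, 10 were in the table, 6 of them had 0 counts in all libraries, and 1 was tested and not called.

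The sorted cells carried the markers of their label. Epcam, the gene sorted for, reached 1656 ± 18.2 CPM at the young and 1510 ± 11.3 CPM at the aged age, while Ptprc gave 0.235 ± 0.0611 and 0.230 ± 0.0404 CPM (SD, n = 3 each). Epcam was lower in each aged library than in any young one (edgeR adjusted p = 0.6535), as were 7.49% of tested genes. None of 8 epithelial markers was called (0 had an unadjusted p under 0.05). Class I genes are expressed by leukocytes too, so the markers of these cells are given beside the members. The 16 T cell and intraepithelial lymphocyte markers, 14 of them under 1 CPM in all libraries, summed to 5.301, 4.548 and 4.513 CPM in young and 9.717, 4.452 and 8.662 CPM in aged libraries, and Cd3e reached at most 0.214 CPM. Itgae was the 1 of 7 tested that was called higher (log2 fold change 1.55 ± 0.23, edgeR adjusted p = 0.0129), against 0.623% of all tested genes. Itgae and Gzma were the most abundant of these markers. Itgae measured 1.41, 1.048 and 1.032 CPM in young and 3.992, 2.829 and 3.386 CPM in aged libraries, without overlap. Gzma measured 1.57, 1.437 and 1.2 against 2.049, 0.439 and 1.943 CPM (edgeR adjusted p = 0.985). Aged replicate 2 had the lowest marker sum and aged replicate 3 the second highest.

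The 11 myeloid markers summed to 44.34, 48.09 and 47.44 CPM in young and 67.60, 75.14 and 54.31 CPM in aged libraries. Of 5 tested, Itgam was called higher (0.78 ± 0.10, edgeR adjusted p = 0.00726), against 0.623% of all tested genes. Cd14, Cd68 and Itgam made most of the sum. Cd14 measured 19.81, 15.01 and 20.98 CPM in the young and 29.00, 33.36 and 19.37 CPM in the aged libraries (unadjusted p = 0.0251, edgeR adjusted p = 0.386), and Cd68 9.532, 17.16 and 9.386 against 15.67, 16.95 and 9.518 CPM (edgeR adjusted p = 0.905). Lyz2 lay lower in each aged library (1.964 to 2.192 CPM) than in any young one (2.300 to 4.033 CPM; edgeR adjusted p = 0.567). Of the rest, S100a8 and S100a9 had 0 counts in all libraries, and Adgre1, Csf1r, Itgax, Tyrobp and Fcer1g reached at most 0.0228, 0.120, 0.143, 0.250 and 0.486 CPM. Villus enterocyte markers summed to 3741 to 5534 CPM in young and 2818 to 4368 CPM in aged libraries, with 0 of 10 called. The 2 with an unadjusted p under 0.05, beside 1377 of 14923 tested genes, went opposite ways. Sis was lower (log2 fold change -0.49 ± 0.14, edgeR adjusted p = 0.197) and Ada higher (0.98 ± 0.31, edgeR adjusted p = 0.324). Crypt base markers summed to 8362 to 11480 CPM in young and 7842 to 8763 CPM in aged libraries, with 0 of 7 called. Lyz1 was lower in each aged library than in any young one (-0.675 ± 0.18, edgeR adjusted p = 0.154). DESeq2 called Sis (adjusted p = 0.030) and Lyz1 (adjusted p = 0.00457) lower. Whether the makeup of the sorted cells had a part in the class I values was not tested.

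The genes closest to B2m and H2-K1 were sought among 10001 tested genes that averaged 5 CPM or more, by the root mean square difference of log2 CPM profiles centred on their means over the 6 libraries. For B2m, which varied by 0.24 about its own mean, these were Rpl27 (0.05), Klhdc4 (0.06), Rnf31 (0.07), Trim12a (0.07) and Apitd1 (0.07). For H2-K1, which varied by 0.45, they were Map7d1 (0.09), Zbp1 (0.13), Btnl2 (0.14), Pitx1 (0.14) and Arid5a (0.15). Rnf31 encodes a subunit of the linear ubiquitin ligase, Zbp1 a sensor of Z-form nucleic acids that interferons induce, and Btnl2 a butyrophilin-like protein. Each of these genes had its aged replicate 3 value below those of the other 2 aged libraries, and none was called. Both traits largely follow from the choice by likeness to B2m or H2-K1, so neither is a separate result. The profiles share the same 6 libraries, and the likeness is given as a description only.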

How the data were processed

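Poly(A) RNA was made into stranded libraries, per the labels' protocols. The deposited values are raw counts per gene, which the authors had not normalised, as whole numbers and unequal totals show. STAR, HISAT2 2.1.0 and featureCounts 1.6.4 are among the tools, and GRCm38 is the build, per the submitters' processing notes. For the counting step, strand setting, annotation release and treatment of multi-mapped reads were not given in the sources used here.

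Genes were filtered with filterByExpr of edgeR 4.0.16 (minimum count 10) and scaled with TMM. Age was tested with the robust quasi-likelihood test over all 6 libraries and 14923 genes (R 4.3.3), with Benjamini-Hochberg adjustment and a threshold of 0.05. Standard errors are the fold change over the square root of F. CPM values use TMM factors. Ratios were compared by exact permutation. Each library was left out in turn, and the other alternatives were 1 surrogate variable (sva 3.50.0), DESeq2 1.42.0, limma-voom (limma 3.58.1), non-robust estimation, and further scaling factors and filters. The edgeR and DESeq2 fits were tested on simulated counts.

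Positions and exonic lengths are from GENCODE M21 on GRCm38. Of the gene IDs 45229 matched it and 849 did not, and the latter held 0.056% of counts. Libraries of a group differed by a chi-square per gene of at least 27.2, far above sampling noise. Named genes were the members, called genes of each list (up to 6, otherwise the 2 most abundant), all tested genes of the other class I list, Epcam, Ptprc and the 5 nearest profiles of B2m and H2-K1. Psmb8, Psmb10, Socs1, Socs3 and the uncalled marker genes were named after their values were seen. The members and lists were chosen with earlier results of these data known. The labels say nothing of batch.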

Additional observations from a re-analysis of the deposited data

How the results depend on the processing

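Of the 10 members, 0 were called higher in the reported fit, 5 by DESeq2, 1 with no filter on low counts, and 0 to 5 when a library was left out, with 5 only without aged replicate 3. The genes called higher over the whole table numbered 93, against 206 by DESeq2, 168 with no filter and 35 to 135 with a library left out. Those called lower numbered 117, against 276 by DESeq2, 245 with no filter, 67 with at least 1 CPM in 3 libraries and 30 to 135 with a library left out. Among other class I genes 3 were called higher by DESeq2, 1 with no filter and 0 to 4 with a library left out. Of the peptide supply genes 8 were called by DESeq2 and 1 to 6 with a library left out, of the regulators 0 to 2 with a library left out, and of the list of interferon receptors, kinases and SOCS inhibitors 1 by DESeq2 and 0 to 1 with a library left out, in both cases Socs3. The cause of these shifts was not tested. Signs turned in 6 genes, none called in any of these fits. H2-Q1 was at -0.018 with 1 surrogate variable and from -0.046 to 0.244 with a library left out, the low end being without young replicate 3. H2-T24 fell to -0.048 without young replicate 1. H2-Bl was at -0.187 with 1 surrogate variable and from -0.143 to 0.333 with a library left out (-0.13 without aged replicate 1). Hfe was at 0.212 with 1 surrogate variable and from -0.399 to 0.090 with a library left out (0.0066 without young replicate 1). Ifngr1 was at -0.0024 with upper-quartile factors and from -0.024 to 0.057 with a library left out (-0.00047 without young replicate 3, -0.012 without aged replicate 1). Ptprc ran from -0.237 to 0.117 with a library left out (0.046 without aged replicate 3). No paired analysis was possible because the labels carry no replicate numbers and the column names pair no young with any aged library. With 3 libraries per age, ratios could not reach an exact p under 0.10.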
